A study of Sus scrofa with 22 samples.

Results

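The genes described here drive the cell division cycle. They were taken as 46 named genes, chosen by name and not by a cut on measured values. Earlier results of these data were known when they were chosen. Of the 46 genes 41 were found among the 29214 pig genes of the count table. MKI67, AURKA, CCNA2, MCM5 and RRM2 were not matched and were not analysed here. Single cells were profiled for polyadenylated RNA with a version of Smart-seq2, in 20 libraries of pig embryo cells (P1 to P20) that span embryonic days 0 to 14 (E0 to E14) and in 2 libraries of pgEpiSC, stem cells from pig epiblast before gastrulation for which the labels name E10 epiblast as the source. The labels give no genotype, strain or treatment for the embryos and do not say how many embryos a library holds. What low and high stand for in pgEpiSC_low and pgEpiSC_high, and whether they are separate lines or cultures, was not given in the sources used. The authors placed the 1647 cells in 39 groups named by stage or by lineage and day, where TE is trophectoderm and ICM is inner cell mass, and their spelling Mesdoderm is kept.

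In the division cycle, D-type and E-type cyclins bind kinases such as CDK2 and carry a cell from the first gap phase (G1) into DNA synthesis (S). There the MCM ring, loaded with the help of CDC6 and joined by CDC45 and GINS proteins, unwinds DNA, and PCNA clamps the polymerase to it. CDK1 with B-type cyclins then starts mitosis, held back by the kinase WEE1 and released by phosphatases of the CDC25 family, and the anaphase-promoting complex ends it with CDC20 and the ubiquitin-conjugating enzyme UBE2C. The first divisions of a mammalian embryo run on RNA and protein stored in the egg, until the embryo's own genome is switched on, which in the pig happens around the 4-cell stage.

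The libraries held from 7415760 to 39405309 counts and the median cell held 274531 counts over 9120 genes. All 96 cell barcodes occurred in more than 1 library. Several libraries hold cells of different days, such as P13 with 2C, 4C, E5 and E14 cells, and most successive stages lie in different libraries, so that stage and library cannot be told apart there. Tests used sums, the counts added over the cells of 1 group in 1 library, given as CPM, counts scaled to a total of 1000000. In the lineage comparisons a sum was over the cells of 1 lineage in 1 library. Nothing in the labels says that libraries are separate litters or cultures, so a p-value reflects only how much library sums vary, which may be technical. A gene's lower CPM can come from fewer cells in a phase or from less RNA per cell, and these cannot be told apart in a sum. The oocyte markers fixed for this work (6 genes, ZP3 and GDF9 among them) summed to 2142 CPM in Oocyte, 1654 to 1817 in 8C and 42.0 to 1010 in Morula_E4, and the 6 trophectoderm markers found summed to 5112 to 5602 CPM in TE_E6. The oocyte marker values move with the stage comparisons of the early embryo below, and their part in those results was not tested.

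The deposited group means, in log2(CPM/10 + 1) averaged over cells, put the members on very different courses. Among the 38 groups with at least 4 cells, 16 of 41 members had their highest mean in a group from Oocyte to 8C, and 10 had it in 8C. TE_E14 held the lowest mean of 16 members, more than any other group. The same counts over all genes were not made, so these counts may not be particular to the members. Of the genes of DNA replication, PCNA had a median group mean of 5.54, a highest of 7.53 in 8C and a lowest of 4.17 in TE_E14. MCM7, a subunit of the helicase ring, varied least of the replication genes, with a range of 1.68 between its highest and lowest group. TYMS, which makes the thymidine precursor of DNA, had a range of 3.95.

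The G1/S cyclins held the widest range of all members. CCND2 (ENSSSCG00000038694, chromosome 5 from 66092483 to 66114575 in Sscrofa11.1) ran from 0.08 in preICM_E5 to 6.01 in Mesdoderm_E13, a range of 5.93. CCND1 (ENSSSCG00000037900, chromosome 2 from 3621242 to 3633380) ran from 0.06 in 8C to 3.98 in TE_E12. Of the mitotic regulators, CDC25C (ENSSSCG00000051455, chromosome 2 from 140289156 to 140323696) ran from 1.15 in TE_E14 to 5.75 in 8C. The checkpoint kinase BUB1B (ENSSSCG00000004782, chromosome 1 from 131093026 to 131143840) ran from 1.28 in Endoderm_E11 to 5.72 in 8C. Among these 38 groups the inhibitor CDKN1B lay between 0.03 in TE_E7 and 1.41 in Mesdoderm_E14 and had the smallest range, 1.38. Over the 2 cells of TE_E9 its mean was 1.51. These are averages over cells of differing number, and cells are not replicates.

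**Figure D1:**
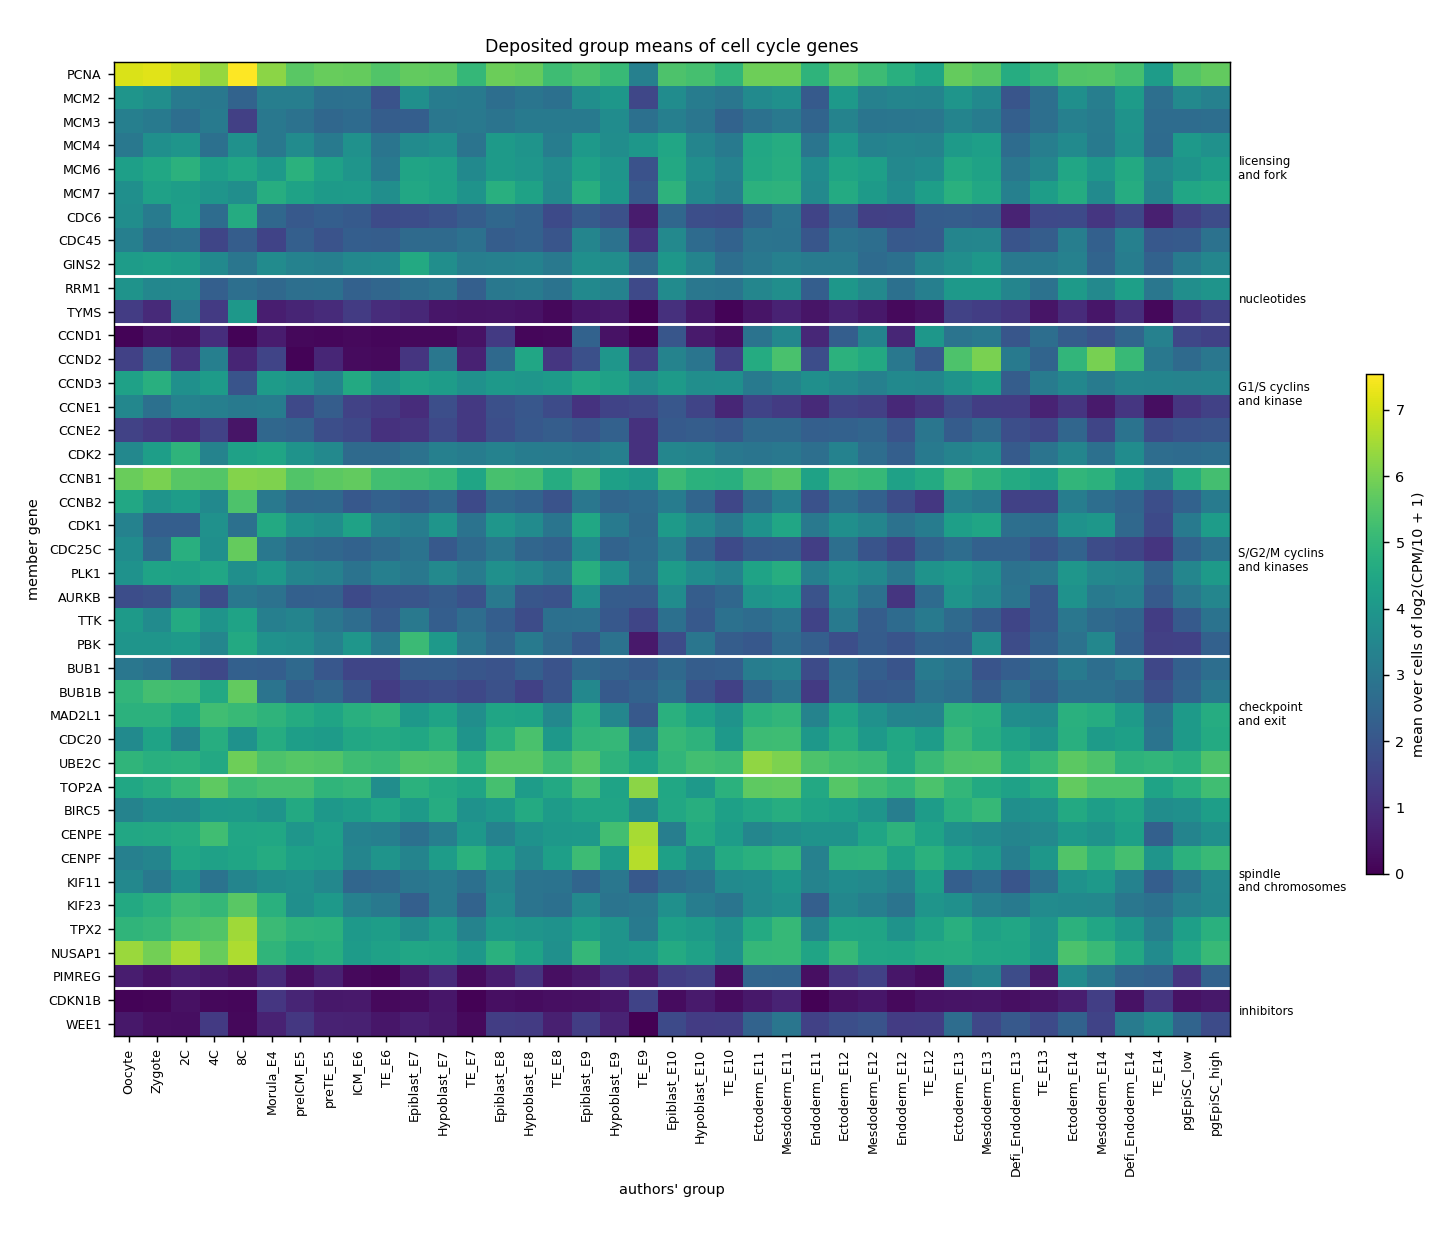
Deposited group means of the 41 members (rows, ordered by role) in the authors' 39 groups (columns, ordered by stage and day), coloured by the mean over cells of log2(CPM/10 + 1). PCNA is brightest in 8C at 7.53, CCND2 is brightest in Mesdoderm_E13 at 6.01, and the TE_E9 column rests on 2 cells.

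From the oocyte to the 2-cell stage there was 1 library for Oocyte and for Zygote, so the steps are values with no replicate check. TYMS was at 53.9 CPM in Oocyte, 7.73 in Zygote and 71.1 and 118 in the 2C sums of P1 and P13. CDC25C followed the same order, at 153 CPM, then 46.4, then 286 and 192. CCNE2, a cyclin of S-phase entry, was at 45.2 CPM in Oocyte and 13.7 in Zygote. With at least 50 summed counts, 1 member was past 2-fold higher and 5 lower in Zygote than in Oocyte, against 5.02% and 35.7% of all 10442 genes. Between Zygote and 2C, 3 members were past 2-fold higher and 1 lower, against 25.7% and 11.3% of 10380 genes.

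At the 4-cell stage 2 members rose over 2C in the quasi-likelihood test of edgeR, whose p-values, adjusted by Benjamini and Hochberg's method over all genes, are the adjusted p given throughout. They were 2 of 41, where 4.43% of all genes rose and 0.0824% fell. P1 and P13 each hold both stages, but this test had no term for the library. The fit with a library block is given in the closing section. WEE1 (ENSSSCG00000013411, chromosome 2 from 49880416 to 49894509) was at 22.3 CPM in the 4C sum of P1 and 6.62 in that of P13, against 1.80 and 2.83 in 2C. Both 4C sums lay above both 2C sums, with a log2 change of 2.97 ± 0.91 (SE, adjusted p = 0.0463). In this step 8 of the 41 members had sums without overlap, called or not. The share of all genes without overlap was not computed. CDC20, which activates the anaphase-promoting complex, rose by 1.05 ± 0.32 (adjusted p = 0.0454). Neither call was kept in every refit with a library left out, and without P1 no member passed.

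The 4C sums themselves stood far apart. In the 4C sum of P1, PCNA was at 515 CPM, CDK1 at 245 and TYMS at 15, near the Morula_E4 sums of P1 and P2, which were at 692 and 597 for PCNA, 253 and 201 for CDK1 and 7.93 and 15.3 for TYMS. In the 4C sum of P13, PCNA was at 1534 CPM, CDK1 at 8.66 and TYMS at 79.0, near the 2C sums at 1125 and 1538, 50.8 and 20.8, and 71.1 and 118. Results that involve 4C therefore rest on a pair of unlike sums.

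At the 8-cell stage 9 members rose and 2 fell against 4C, where 4.08% of all genes rose and 7.16% fell. The members' median change was 0.60 on the log2 scale, against 0.05 over all genes in the same fit. Both medians follow the scaling between libraries in that fit. For PCNA, CDC25C, CCNB2 and UBE2C the fitted rise was larger than that of the plain CPM given for the sums. In this step 20 of the 41 members had sums without overlap, called or not, and the share over all genes was not computed. In the licensing and fork genes PCNA (ENSSSCG00000030642, chromosome 17 from 14137746 to 14142584) stood at 1704 and 1788 CPM in the 8C sums of P19 and P20, above both 4C sums. It rose by 1.46 ± 0.39 (adjusted p = 0.00926), and CDC6 rose by 1.88 ± 0.62 (adjusted p = 0.0385). Of the 8 cyclins, kinases and phosphatases of S, G2 and M phase, 4 rose. They were CCNB1, CCNB2, CDC25C and PBK, a kinase active in mitosis.

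CDC25C stood at 434 and 516 CPM in 8C, against 130 and 230 in 4C, a rise of 2.06 ± 0.53 (adjusted p = 0.00531). CCNB2 stood at 320 and 427 CPM against 112 and 184, a rise of 2 ± 0.51 (adjusted p = 0.00524). UBE2C (ENSSSCG00000007423, chromosome 17 from 48018403 to 48021542) stood at 517 and 561 CPM in 8C and at 216 and 255 in 4C. Its rise of 1.81 ± 0.32 (adjusted p = 8.55e-05) was the only call of this step kept in all 4 refits with a library left out. TPX2 and NUSAP1, which act on spindle microtubules, rose as well. Of the 6 G1/S members tested, 0 rose and 2 fell, CCND3 and CCND1. CCND3 (ENSSSCG00000032284, chromosome 7 from 37087336 to 37182462) was at 64.5 and 29.9 CPM in 8C and 170 and 238 in 4C, and fell by 1.58 ± 0.36 (adjusted p = 0.00181). CCND1 was at 1.20 and 0.41 CPM in 8C and at 21.2 and 0.51 in 4C. Its change of -3.53 ± 1.05 (adjusted p = 0.02) rested on P1: without P1 the value was 1.19. Without P13, P1 or P20 the step called 18, 4 and 1 members.

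Of the other 99 cell cycle genes in the lists, 11 rose and 7 fell in 8C. The E2F, RB and DREAM genes, transcription factors that control cell cycle genes, had 0 of 18 higher and 4 of 18 lower. Among them E2F5 fell by 3.00, MYBL2 by 2.24 and E2F6 by 3.89 on the log2 scale. Of 11 kinetochore genes 4 rose, with NDC80 at 1.66.

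Between 8C and the morula, 4 members rose and 11 fell, where 16.4% of all genes rose and 13.6% fell. The 4 that rose were MCM3 and the cyclins CCND3, CCNE2 and CCND1. CCNE2 (ENSSSCG00000006095, chromosome 4 from 41802090 to 41821870) was at 6.16 and 4.84 CPM in 8C and at 58.4 and 62.6 in Morula_E4, a rise of 3.16 ± 0.63 (adjusted p = 0.000111). CCND3 was back at 204 and 207 CPM, a rise of 1.89 ± 0.37 (adjusted p = 6.97e-05). In all, 3 of 6 G1/S members rose and 0 fell.

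The members that fell came from all roles but the G1/S cyclins and the inhibitors. BUB1B was at 387 and 522 CPM in 8C and at 79.5 and 37.4 in Morula_E4, and fell by 3.31 ± 0.53 (adjusted p = 3.44e-06). In the Oocyte, Zygote, 2C and 4C sums it had been at 208 to 425 CPM. TYMS (ENSSSCG00000040678, chromosome 6 from 105642730 to 105660279) was at 164 and 166 CPM in 8C and at 7.93 and 15.3 in the morula. CDC25C was at 101 and 69.4 CPM in the morula and fell by 2.82 ± 0.54. PCNA fell by 1.76 ± 0.40. CCNB1, the main mitotic cyclin, had 624 and 595 CPM in the morula and 595 and 675 in 8C, so that its groups overlapped while CCNB2 fell by 2.65.

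Of these 15 calls 8 (BUB1B, CCNB2, CCND3, CCNE2, CDC25C, NUSAP1, PCNA and TYMS) were kept in all 4 refits with a library left out, and without P20 8 members were called. With DESeq2's size factors in edgeR the split was 2 higher and 19 lower, while the all-gene median shifted from 0 to -0.47. Among the other listed genes 18 rose and 25 fell, with GINS1 higher by 4.07 ± 0.46, CDT1, which loads the helicase, by 6.01 ± 0.77 and MYBL2 by 2.99 ± 0.46. E2F8, a repressor, fell by 4.23 ± 0.76, and 5 of 8 cytokinesis genes fell.

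**Figure D2:**
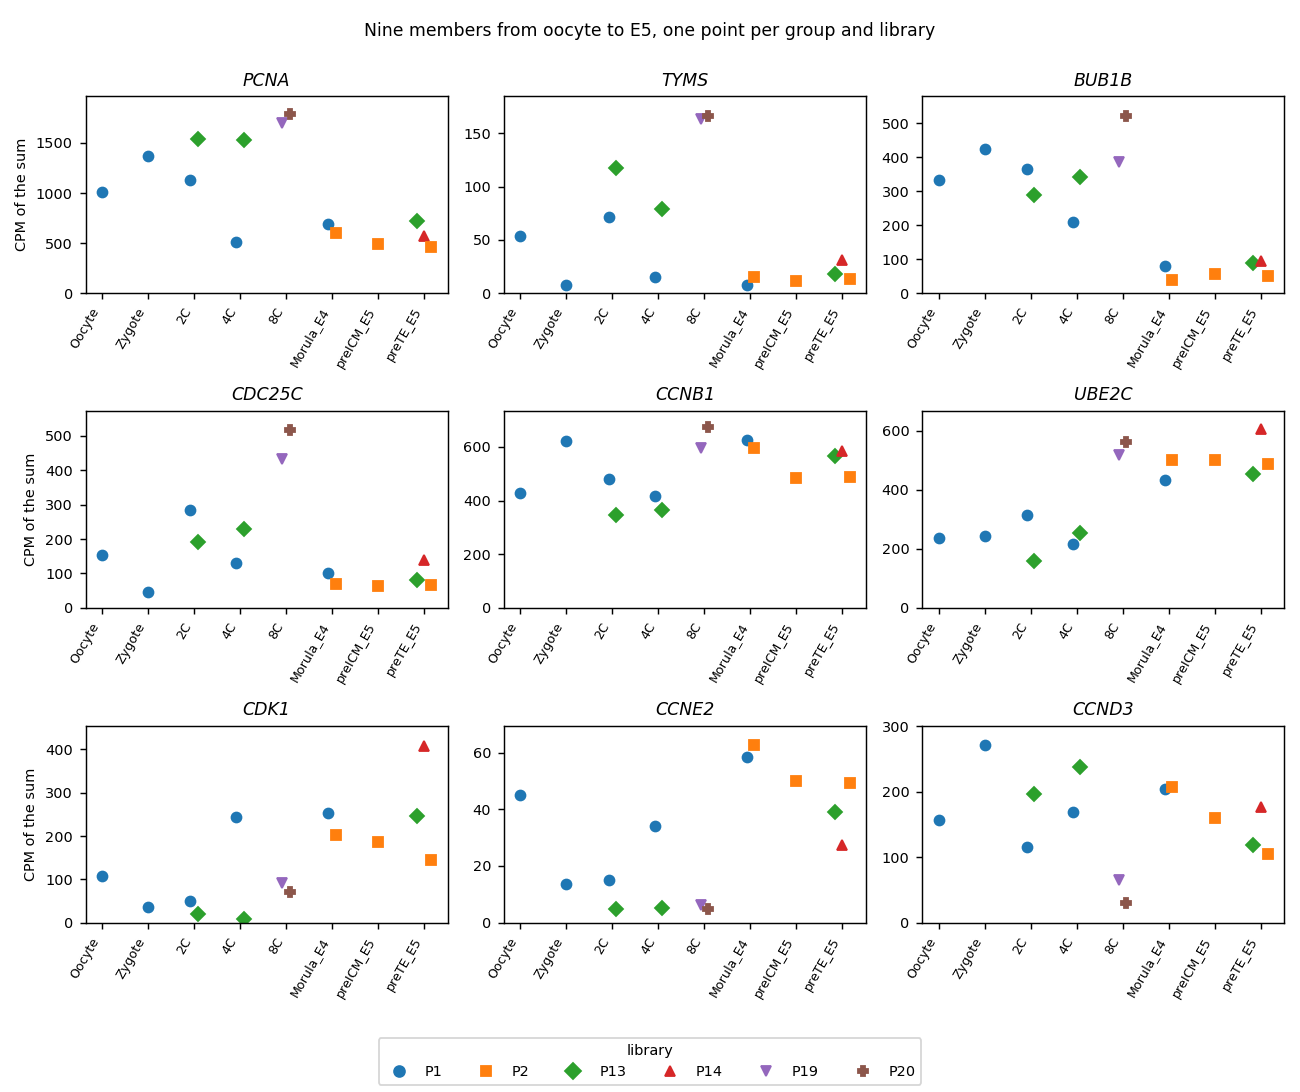
CPM (vertical axes, starting at 0) of 9 members in the sums of each group from Oocyte to E5, 1 point for each group and library, with the library as colour and symbol. The 8C sums stand at 387 and 522 CPM for BUB1B and the Morula_E4 sums at 79.5 and 37.4, while CCNE2 runs the other way, and the P1 and P13 sums of 4C lie apart for CDK1, PCNA and TYMS.

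Across the whole transition, Morula_E4 and the E5 groups (6 sums) were set against Oocyte to 8C (8 sums). The 14 sums come from 6 libraries and were taken as independent, although P1 gave the Oocyte and Zygote sums and sums of 2C, 4C and Morula_E4, and P13 gave sums of 2C, 4C and preTE_E5. There 13 members were higher and 6 lower, where 26.3% of all genes were higher and 18% lower. The split depended on the scaling: with DESeq2's size factors it was 5 higher and 17 lower, and the all-gene median shifted from 0.24 to -0.28. The members' own median was 0.30, which is 0.05 above that of all genes in the same fit. CDK1 (ENSSSCG00000010214, chromosome 14 from 64233945 to 64255290) rose by 2.11 ± 0.37 (adjusted p = 7.64e-06), from a fitted 57.2 to 213 CPM. UBE2C rose by 1.25 ± 0.18 (adjusted p = 1.52e-07), and WEE1 rose by 1.89 ± 0.49. BUB1B fell by 2.05 ± 0.32 (adjusted p = 8.32e-07), from a fitted 268 to 60.8 CPM.

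BUB1B, CCNE2, CDK1, NUSAP1, UBE2C and WEE1 kept their calls in all 6 refits with a library left out. With each arm taken as 1 group and the library as a block, 4 members were higher and 2 lower, against 10 and 7 in the same arms without the block. The 6 were CDK1, CCNE2, UBE2C and CDKN1B, higher by 3.26, 2.54, 1.38 and 3.55, and BUB1B and TYMS, lower by 1.51 and 1.84. That fit compares the arms within P1 and P13, the libraries that hold both. CCNB1 and CCND3, called higher at 0.59 and 0.65, turned to -0.15 and -0.11 with DESeq2's size factors. Of the other listed genes 33 of 99 rose and 14 fell, among them 6 of 10 cohesin and condensin genes higher and 0 lower.

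After the morula the tested steps moved few members. None was called in preTE_E5 against Morula_E4 (2 at an unadjusted p under 0.05, 0 with DESeq2), where 0.0521% of all genes were called. In preICM_E5, a single sum, CCND2 was at 0.656 CPM against 61.0 over the morula cells, and CCNE1 was at 30.7 against 117. In that untested step no member was past 2-fold higher and 5 were lower, against 9.53% and 22.2% of all genes. In TE_E6 PIMREG, a mitotic regulator, was at 1.04 and 1.72 CPM, against 13.5, 40.6 and 3.45 in the 3 preTE_E5 sums. It fell by 3.40 ± 0.83 (adjusted p = 0.00874), where 3.09% of all genes rose and 1.77% fell, and the call was lost without P14 (adjusted p = 0.455).

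CCND2 then rose in the hypoblast. It was at 166 and 112 CPM in the Hypoblast_E7 sums and at 0.713 and 4.49 in the ICM_E6 sums, with a change of 6 ± 1.27 (adjusted p = 0.00651), where 0.729% of all genes rose and 0.243% fell. This call was lost without P14 (adjusted p = 0.0748). In Epiblast_E7 against ICM_E6 no member was called (4 unadjusted, 1 with DESeq2), where 1.84% of all genes were. The E7 epiblast stood out for PBK (ENSSSCG00000009671, chromosome 14 from 11543657 to 11577286), which was at 419 and 434 CPM there and at 61.8 and 64.8 in Epiblast_E8. PBK fell by 2.98 ± 0.43 (adjusted p = 0.00023), a call kept in all 4 refits, where 0.434% of all genes rose and 0.161% fell. GINS2, a subunit of the replicative helicase, was at 285 and 270 CPM in Epiblast_E7 and at 128 and 77.1 in Epiblast_E8, and fell by 1.66 ± 0.42 (adjusted p = 0.0457), a call lost in every refit with a library left out.

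In the other tested steps up to E10 no member was called. For TE_E7 against TE_E6 12 members had an unadjusted p under 0.05, DESeq2 called 2 and 0.755% of all genes were called, and without P8 8 members were called. For Hypoblast_E8 against Hypoblast_E7 there were 2 unadjusted, 1 with DESeq2 and 0.239% of all genes. For TE_E8 against TE_E7 there were 2 unadjusted, 0 with DESeq2 and 0.0304% of all genes, and without P8 4 members were called. For TE_E10 against TE_E8 there were 2 unadjusted, 0 with DESeq2 and 0.13% of all genes.

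From epiblast to ectoderm the D-type cyclins moved in opposite directions. Ectoderm of E11 to E14 (8 sums) was set against epiblast of E7 to E10 (7 sums), and 5 members rose and 1 fell, where 4.3% of all genes rose and 2.62% fell. CCND2 was at 20.8 and 20.3 CPM in Epiblast_E7, 89.8 and 108 in E8, 33.5 in E9 and 135 and 115 in E10. In ectoderm it was at 249 and 307 CPM in E11, 313 in E12, 431 and 452 in E13, and 299, 345 and 381 in E14. Every ectoderm sum lay above every epiblast sum, and the change was 2.66 ± 0.57 (adjusted p = 0.00187). CCND3 went from 161 to 264 CPM in the epiblast sums to 87.9 to 163 in the ectoderm sums, and fell by 0.70 ± 0.20 (adjusted p = 0.0195).

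CCND1 already differed within the epiblast, with 0.33 and 2.57 CPM in E7 and 66.1 and 32.7 in E10. Its ectoderm sums, from 41.6 to 104 CPM, overlapped with those of E8 to E10, and the change was 2 ± 0.54 (adjusted p = 0.0156). PIMREG was at 4.08 to 27.4 CPM in epiblast and 51.9 to 181 in ectoderm except Ectoderm_E12, which was at 17.8. Its change of 2.60 ± 0.46 (adjusted p = 0.000145) and that of CCND2 were the calls kept in all 15 refits. The checkpoint kinase BUB1 was at 31.9 to 64.9 CPM in epiblast and 78.5 to 124 in ectoderm without overlap, a rise of 0.94 ± 0.27 (adjusted p = 0.0223). WEE1 rose by 1.39 ± 0.44 (adjusted p = 0.0435), and without P4 3 members were called in all.

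At the border itself, Ectoderm_E11 against Epiblast_E10, only UBE2C was called, at 652 and 809 CPM against 338 and 336. It rose by 1.42 ± 0.32 (adjusted p = 0.0372), where 0.148% of all genes rose and 0.0174% fell, and the call was lost in every refit with a library left out. Mesdoderm_E11 had 1 library. There 7 members were past 2-fold higher than in Epiblast_E10 and 2 lower, against 6.47% and 25% of all genes. TOP2A, the enzyme that untangles DNA, was at 550 CPM against 252 and KIF11 at 173 against 69.7. Endoderm_E11, with 13 cells, had no member higher and 16 lower, against 11.3% and 39% of all genes, and the median log2 ratio was -0.77 for members and -0.65 for all genes. MCM2 was at 45.7 CPM there against 140 and CDC45 at 41.9 against 123.

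Among the later steps none of the members was called in Ectoderm_E14 against Ectoderm_E13 (3 unadjusted, 1 with DESeq2, 0.269% of all genes) or in Mesdoderm_E14 against Mesdoderm_E13 (11 unadjusted, 1 with DESeq2, 0% of all genes). The spindle motor KIF11 is given here after its values were seen. Its E13 sums with at least 5 cells were at 62.2 to 69.7 CPM in P18 and 42.0 to 72.7 in P19 over all 4 lineages, while the TE_E13 sums of P10 and P9 were at 101 and 110. The E12 sums, all of P10, were at 128 to 225 CPM. For KIF11 the ectoderm difference between E14 and E13 was 1.57 ± 0.41 (adjusted p = 0.0926), and library and day cannot be told apart.

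**Figure D3:**
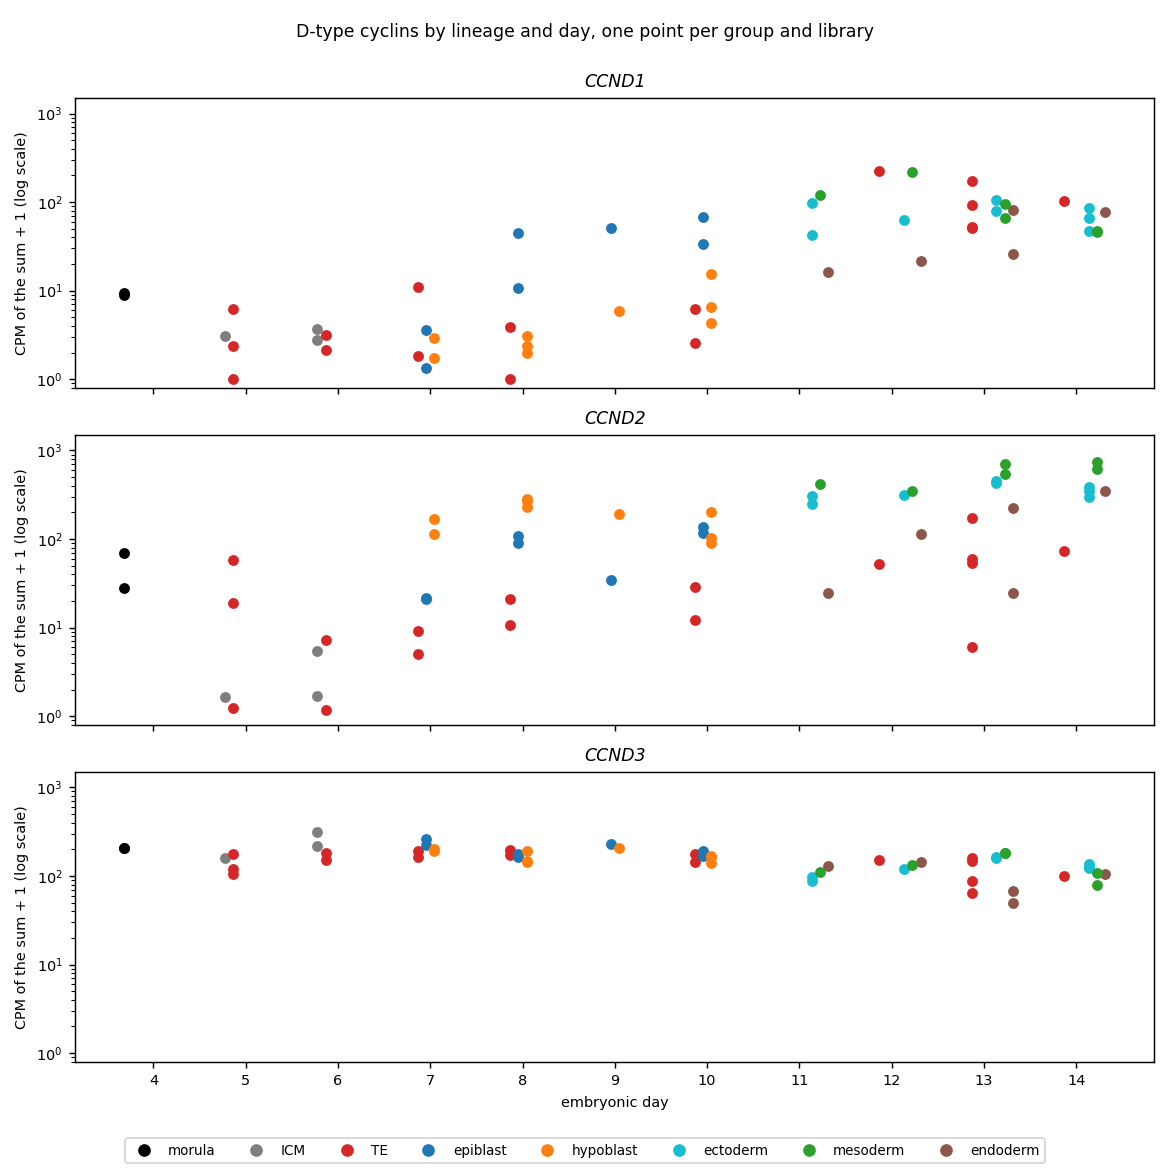
CPM + 1 of CCND1, CCND2 and CCND3 (log axes) by embryonic day from E4 to E14, 1 point for each group and library with at least 5 cells, coloured by lineage and shifted sideways within a day. CCND2 reaches 431 and 452 CPM in Ectoderm_E13, CCND1 in TE stays at or below 10.1 CPM up to E10 and is at 50.6 to 225 from E12, and CCND3 stays within a narrower band.

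Elongating trophectoderm (TE of E12 to E14, 6 sums) was set against TE of E6 to E8 (6 sums), with only library P9 on both sides. The late sums come from 5 libraries, since P10 gave sums of TE_E12 and TE_E13, and all sums were taken as independent. Here 4 members rose and 9 fell, where 9.24% of all genes rose and 5.3% fell. The members' median change was -0.28, against 0.06 for all genes. The fibroblast marker list (6 genes, collagens among them) summed to 544 to 820 CPM in TE_E14, 2.13 to 18.5 in TE_E13 and 0.947 to 4.07 in TE_E6. The trophectoderm list was at 2095 to 2389 CPM in TE_E14 and 3257 to 5328 in TE_E13. The part of these markers in the result was not tested.

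CCND1 was at 1.13 and 2.14 CPM in the E6 sums, 0.816 and 10.1 in E7, and 0 and 2.94 in E8. It was still at 5.19 and 1.58 CPM in E10, and then at 225 in E12, 51.4, 50.6, 91.7 and 171 in E13, and 102 in E14. No early sum reached the lowest late sum, and CCND1 rose by 5.78 ± 0.71 (adjusted p = 3.72e-08). WEE1 was at 0 to 23.8 CPM in the early sums and 5.88 to 150 in the late ones, which overlapped, and rose by 3.12 ± 0.55 (adjusted p = 4.76e-05). CCND2 rose by 3.29 ± 0.69 (adjusted p = 0.000486). PBK was at 58.7 to 126 CPM early and at 30.8 to 79.7 late, and fell by 1.23 ± 0.28 (adjusted p = 0.00113). These 4 genes kept their calls in all 10 refits with a library left out.

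The calls of the other 8 members that fell were lost without library P12. P12 held the only TE_E14 sum in the test, with 10 cells. Without it 5 members rose and 1 fell, and KIF23 and BUB1B were then called higher, at 0.91 ± 0.28 and 1.05 ± 0.34. CDC6 was at 3.21 CPM in the P12 sum of TE_E14 and at 29.4 to 56.0 in the E12 and E13 sums. Its change went from -1.25 ± 0.44 to 0.06 ± 0.40 without P12. CCNE1 was at 2.57 CPM in that sum and 9.17 to 21.2 in the E12 and E13 sums, and CDC20 was at 69.0 against 128 to 199. Without P8 4 members rose and 4 fell.

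Set against TE_E13, the pooled TE_E14 cells had 8 members past 2-fold lower and 3 higher, against 12.1% and 21.9% of all genes, with no test. The lower ones were of replication and mitosis, such as CDC6 at 5.90 CPM against 40.1, CDC25C at 11.8 against 48.2 and CDC20 at 68.7 against 174. The higher ones were PIMREG and both inhibitors, with WEE1 at 137 CPM against 59.5 and CDKN1B at 22.1 against 7.82. TE_E12 against TE_E10 had 7 members past 2-fold higher, against 16.9% of all genes, and 0 lower, against 9.08%. CCND1 was the largest of them, at 225 CPM against 3.67, and BUB1, BUB1B and KIF23 were among them.

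Among the other listed genes 8 rose and 18 fell in late TE. UHRF1, which copies DNA methylation marks after replication, rose by 7.08 ± 0.94, and 3 of 6 CDK inhibitor genes rose. CDC25B fell by 3.05, FBXO5, an inhibitor of the anaphase-promoting complex, by 2.26 and GINS1 by 1.42. The values of these other genes come from the fit with P12, and how far they rest on P12 is not given here.

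**Figure D4:**
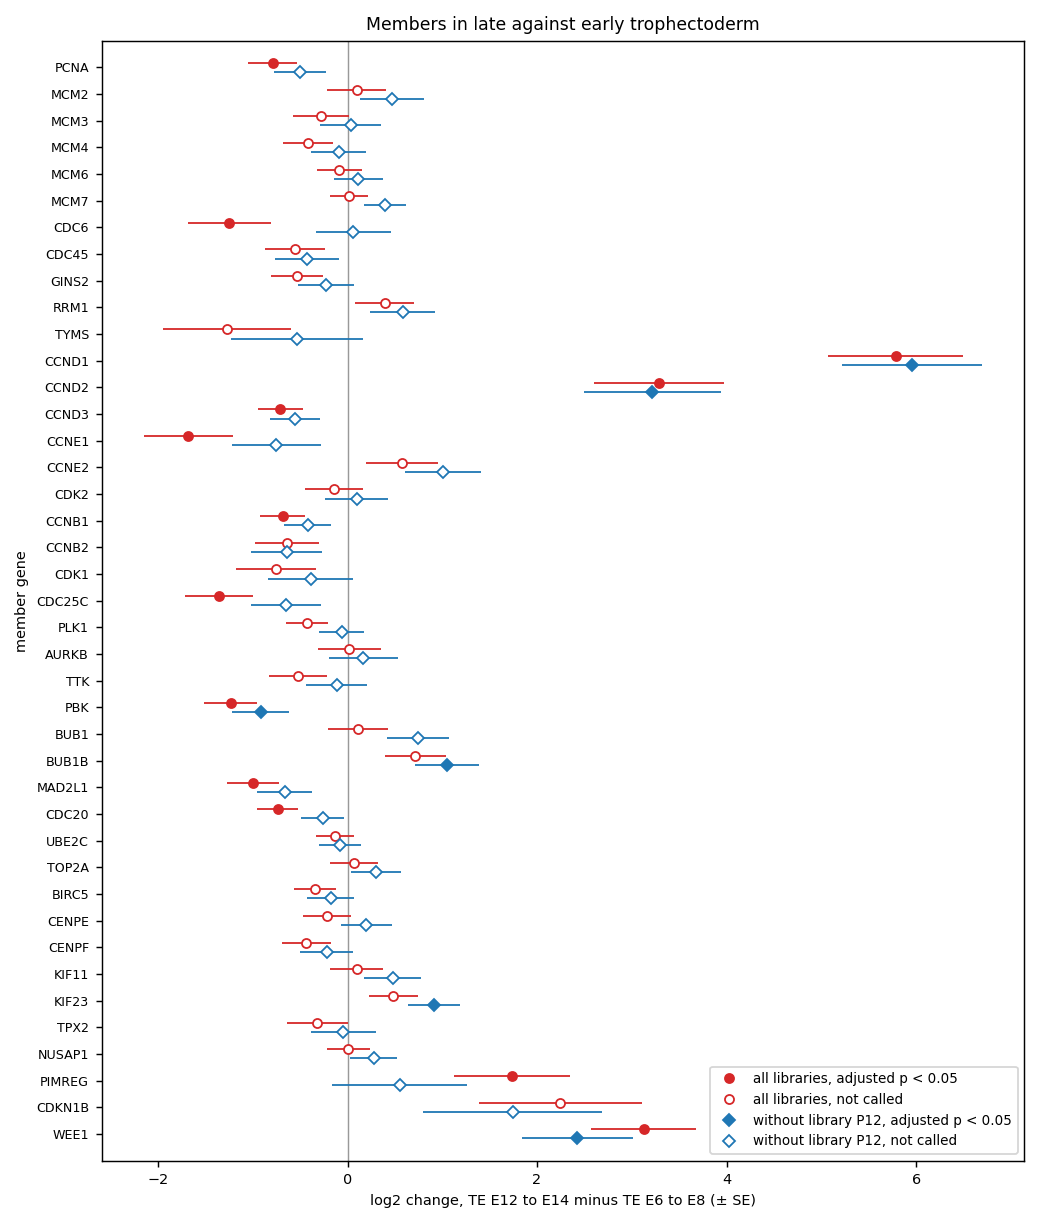
Log2 change ± SE of the 41 members in TE of E12 to E14 against TE of E6 to E8 (horizontal axis), with all libraries (circles) and without library P12 (diamonds), filled where the adjusted p was under 0.05. CCND1, CCND2 and WEE1 stay far to the right in both fits, while CDC6 moves from -1.25 to 0.06.

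Lineages were compared within libraries that held both, with the library as a block. Here a sum held all cells of a lineage in a library, over all its days. In P5 the hypoblast and TE cells were of E8 and E10 and the epiblast cells of E8 alone. In P14 the TE cells were of E5 and E6 and the ICM cells of E6 alone. Day and lineage cannot be told apart in such a library. In hypoblast against epiblast (6 libraries) 3 members were higher and 7 lower, where 12.3% of all genes were higher and 10.7% lower. CCND2 was at 270 CPM in hypoblast and 89.8 in epiblast in P4, 190 and 108 in P5, 166 and 20.8 in P8, 112 and 20.3 in P9, 201 and 115 in P16, and 192 and 33.5 in P17. It was higher in hypoblast in 6 of 6 libraries, by 1.84 ± 0.29 (adjusted p = 0.000729). CENPE, a motor that brings chromosomes to the spindle equator, was at 163 against 91.7 CPM, 176 against 111, 104 against 89.2, 126 against 74.4, 268 against 115 and 361 against 150 in the same order. It was higher in 6 of 6 libraries, by 0.83 ± 0.17 (adjusted p = 0.00465), and CCND2 and CENPE were the calls kept in all 6 refits.

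BIRC5, the survivin subunit of the chromosomal passenger complex, was higher by 0.39 ± 0.13 and its partner kinase AURKB lower by 0.86 ± 0.27. With a library left out, the BIRC5 call was kept in 0 of 6 refits and the AURKB call in 2 of 6. AURKB was lower in hypoblast in P4, P5, P9, P16 and P17 and higher in P8, at 70.5 CPM against 45.2. TTK, TOP2A and NUSAP1 were lower in 6 of 6 libraries, by 0.60, 0.56 and 0.45. CCND1 was lower by 2.05 ± 0.63, with 0.957 CPM against 9.76 in P4 and 4.82 against 49.5 in P17, but under 3 CPM in both lineages in P8 and P9. With P4, P5, P9 or P17 left out, 6, 3, 5 and 4 members were called. With DESeq2's size factors the split was 2 higher and 9 lower. Of the other 92 listed genes tested, 6 were higher and 9 lower.

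Trophectoderm against epiblast (4 libraries) had 0 members higher and 3 lower of the 40 tested (CDKN1B did not pass the filter on low counts here, and all 41 passed it in every other test), where 7.47% of all genes were higher and 7.4% lower. CDK1 was at 95.9 CPM in TE and 202 in epiblast in P4, 101 and 259 in P5, 93.0 and 144 in P8, and 44.5 and 178 in P9. It was lower in 4 of 4 libraries, by 1.21 ± 0.35 (adjusted p = 0.0324). NUSAP1 was at 121 and 286, 197 and 407, 199 and 308, and 113 and 304 CPM in the same order, lower by 1.05 ± 0.32 (adjusted p = 0.0395). CCND2 was lower by 1.96 ± 0.50 (adjusted p = 0.0163). None of the 3 calls was kept in every refit, and 0 members were called without P5 or without P8, 1 without P4 and 5 without P9. Of the other listed genes CDKN1A and CDKN1C, both CDK inhibitors, were lower in TE, by 3.36 and 3.28.

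Trophectoderm and ICM of E5 and E6 (3 libraries) had no member called and 0% of all genes, with 6 members at an unadjusted p under 0.05, 4 called by DESeq2 and 3 without P2. In mesoderm against ectoderm (6 libraries) 2 members were higher and 0 lower, where 2.11% of all genes were higher and 1.51% lower. PBK was at 68.6 CPM in mesoderm and 40.3 in ectoderm in P6, 54.4 and 39 in P10, 98.6 and 77.5 in P12, 146 and 85.6 in P13, 136 and 52.6 in P18, and 129 and 56.5 in P19. It was higher in 6 of 6 libraries, by 0.91 ± 0.17 (adjusted p = 0.0176). CCND2 was also higher in 6 of 6, by 0.68 ± 0.13 (adjusted p = 0.0216), from 344 against 313 CPM in P10 to 731 against 381 in P13. Neither call was kept in every refit: 1 member was called without P12 and without P18, and 0 without P13 and without P19. In endoderm against ectoderm (4 libraries) no member was called, with 7 at an unadjusted p under 0.05, 0 by DESeq2, 1 without P11 and 1.31% of all genes.

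The pgEpiSC libraries were set against Epiblast_E10. pgEpiSC_low and pgEpiSC_high have 1 library each and were put in the same group, so each served as the replicate of the other. No library holds both pgEpiSC and epiblast cells, so a difference between libraries cannot be told apart from one between the cells. The 2 pgEpiSC sums had 4 members higher and 0 lower, where 3.3% of all genes were higher and 3.23% lower. TOP2A was at 358 and 441 CPM in pgEpiSC_low and pgEpiSC_high and at 247 and 258 in the epiblast sums of P15 and P16. It was higher by 0.90 ± 0.16 (adjusted p = 0.00637). CENPF, a kinetochore protein of late G2 and mitosis, was at 374 and 400 CPM against 213 and 228, higher by 1.05 ± 0.21 (adjusted p = 0.0104). KIF11 was at 102 and 137 CPM against 65.0 and 75.9 and PCNA at 507 and 532 against 397 and 431, with adjusted p = 0.0374 and 0.0427. In all 4 genes both pgEpiSC sums lay above both epiblast sums, but 27 of the 41 members had sums without overlap here, called or not. How many of all genes had such sums was not computed. None of the 4 calls is therefore set apart by it. None of the 4 calls was kept in every refit, and 0 were called without P15, 1 without P16, 1 without pgEpiSC_low and 2 without pgEpiSC_high. Among the other listed genes E2F5 was higher by 1.07 and RBL1 by 1.55, and CHEK2, a kinase of the DNA damage checkpoint, was lower by 1.00.

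Between the pgEpiSC libraries there is no replicate check. PIMREG was at 68.5 CPM (counting interval 64.9 to 72.2) in pgEpiSC_high and 25.5 (22.9 to 28.4) in pgEpiSC_low. WEE1 was at 31.5 CPM (29.1 to 34.1) in pgEpiSC_high and 68.9 (64.5 to 73.5) in pgEpiSC_low. These were the only members past 2-fold, where 4.2% of all genes were past it higher in pgEpiSC_high and 2.64% lower. The next largest was PBK, at 54.1 against 29.4 CPM. Intervals here and below are exact at 95% and cover counting error only.

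Each of 1626 cells was also given a phase, from S and G2/M scores of 40 and 48 genes after thinning to 20000 counts. Many member genes are in those score lists, so the shares restate them per cell, and 619 cells lay within 0.05 of a boundary between calls. G2/M calls made up 0% of the 10 2C cells (up to 30.8%), 82.6% of the 23 4C cells (61.2 to 95) and 45.6% of the 79 8C cells. All 30 morula cells had the call. In 4C, 17 of 17 cells of P1 and 2 of 6 cells of P13 had it, so that the share differed between the libraries of this stage. What set them apart was not tested. Without thinning, 1323 cells kept their phase, and the G2/M shares were 65.2% in 4C, 30.0% in 8C and 76.7% in the morula. With scores centred within each group the shares were 34.8% in 4C, 35.4% in 8C and 36.7% in the morula. In that setting 4 of the 10 2C cells had the call, so the course from 2C to the morula was not kept. All 4 Oocyte cells and all 6 Zygote cells were called S, with and without thinning. With centred scores 1 of 4 Oocyte cells and 2 of 6 Zygote cells were. A call is a range of a score and not a measured phase.

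In the epiblast the G2/M share was 17.1% of 35 cells in E7, 60.0% in E8, 85.7% in E9 and 39.6% of 96 cells in E10, and in Ectoderm_E11 it was 80.4% of 102 cells. These shares depended on the scoring. Without thinning they were 14.3% in E7, 26.7% in E8, 71.4% in E9, 10.3% in E10 and 60.8% in Ectoderm_E11. With scores centred within each group they were 34.3%, 33.3%, 28.6%, 38.5% and 43.1% in the same order. Nearly every cell scored above 0 for S or G2/M, apart from TE_E14, where 8 of 11 cells (72.7%, 39 to 94) scored for neither, all 8 in P12. Without thinning 7 of the 11 did. With centred scores every group held such cells. The share was then 45.5% in TE_E14, 42.9% in Epiblast_E9 and 39.1% in 4C. The G2/M share was 49.4% in pgEpiSC_low and 65.3% in pgEpiSC_high, and 43.0% and 52.1% without thinning. With centred scores it was 43.5% and 45.3%, so the difference was hardly kept. The lineage differences in the S and G2/M shares within libraries were put to exact two-sided sign-flip permutation tests. The smallest p that these allow is 0.25 with 3 libraries, 0.125 with 4 and 0.03125 with 6, so that none could have passed after adjustment over the 10 tests. The smallest adjusted p was 0.58. Endoderm was below ectoderm in the G2/M share in 4 of 4 libraries, by 18.3 ± 19.6 percentage points (SD, n = 4). Without thinning the difference was -7.32 points and with centred scores -3.09, and in both cases endoderm was lower in 2 libraries and higher in 2. TE minus epiblast was 27.1 ± 18.8 points, higher in 3 of 4 libraries, 38.9 points without thinning and -1.66 with centred scores.

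Pairs of mitosis members correlated across the cells of a sum to very different degrees. Spearman's rho was computed for all pairs of the 11 replication members and of the 22 mitosis members in the 12 sums with at least 40 cells. The pairs share their cells and each cell's depth, and the values are a description. The median rho of mitosis pairs was -0.04 in the 65 8C cells of P20, between 0.11 in Epiblast_E10 of P15 and 0.42 in pgEpiSC_high in the other 11 sums. Replication pairs had medians from 0.05 in that 8C sum, close to 0.07 in Hypoblast_E8 of P4 and in Epiblast_E10 of P16, to 0.23 in pgEpiSC_low, and pairs of 1 replication and 1 mitosis member from -0.17 to 0.06. The 8-cell stage is 1 sum of 1 library here. The closest pair was TOP2A and CENPF, with a median rho over the sums of 0.71, followed by UBE2C and TOP2A with 0.66. Over the 12 sums the rho of TOP2A and CENPF ran from -0.03 to 0.85.

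**Figure D5:**
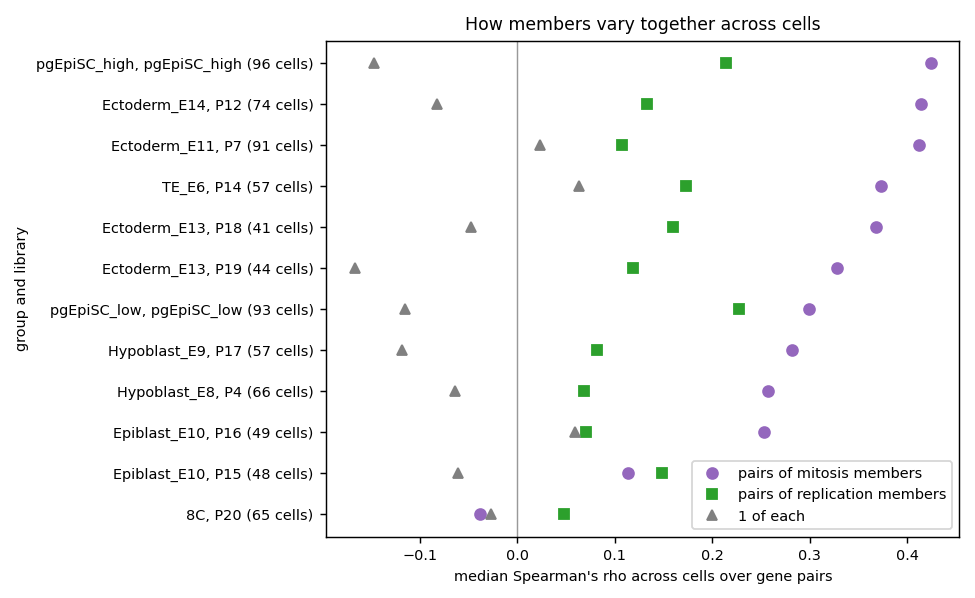
Median Spearman's rho over gene pairs across the cells of a sum (horizontal axis) in the 12 sums with at least 40 cells (rows), for pairs of mitosis members (circles), pairs of replication members (squares) and 1 of each (triangles). The 8C sum of P20 has the only mitosis median below 0, at -0.04, and pgEpiSC_high the highest, at 0.42.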

How the data were processed

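Libraries of single cells were made with a modified form of Smart-seq2, per the labels' protocols. Named in the submitters' processing notes, without role or order, are the build Sscrofa11.1, UMI-tools, featureCounts 1.6.4 and STAR 2.7.1a. The deposited count table holds raw counts of 29306 features, including 92 spike-ins (1.80% of counts, left out), in 1647 cells. The authors' deposited tables of 39 groups hold the mean and SD over cells of log2(CPM/10 + 1), a log2 scale whose embryonic columns were recorded as another unit because they share samples.

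Cell names give only the library, so the authors' grouping was recovered by least squares from the deposited means: each cell took weight in exactly 1 group, and at least 93.1% of a group's means came within 0.001. This is a departure from the plan. Members were matched by symbol (38) or identifier (3). The members and lists were chosen with earlier results of these data known. Named were members past the threshold, up to 6 other listed genes per comparison with the smallest adjusted p, untested members past 2-fold with at least 50 summed counts, and members with the widest or narrowest range.

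Counts were added per group and library and kept from 5 cells on (from 2 in 2C, 4C and Zygote and from 1 in Oocyte), then tested with edgeR 4.0.16 in R 4.3.3 (filterByExpr, TMM, trended dispersion, quasi-likelihood F-test, Benjamini-Hochberg over all genes tested, threshold 0.05), checked on simulated counts. For the lineage comparisons counts were added per lineage and library, over all days of the lineage. SE is the log2 change over the square root of F. Sums are given as plain CPM and fitted levels as TMM-scaled CPM. The 15 stage steps and 3 wide contrasts came from 1 fit of the embryo sums and share groups, lineages were compared with a term for the library over at least 3 libraries, and steps with fewer than 2 libraries in a group were left untested. Untested ratios had a pseudocount of 1 CPM. Phases came from scanpy 1.11.5 on cells thinned to 20000 counts; 21 shallower cells were left out. Python 3.11.15, numpy 2.4.6, pandas 2.3.3, scipy 1.17.1 and matplotlib 3.10.9 were used. Alternatives were DESeq2 1.42.0, its size factors, no filter, no trended dispersion, cells with at least 6000 genes, at least 10 cells per sum, no block, another reference and each library left out. The fit of 4C against 2C on the same sums without a block and the 2-arm fits of morula and E5 against Oocyte to 8C, with and without a library block, were added after the data were seen.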

Additional observations from a re-analysis of the deposited data

Results flagged for a closer look

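In trophectoderm against epiblast, the log2 ratio of CCND2 in P9 was -1.23, while the other 3 libraries lay near the median of -2.03. Its gap to the nearest other library was 0.84 of the whole range. Of 32 sets of values examined in this way 1 stood out, and chance alone sets about 1 in 20 apart. TE was lower than epiblast in P9 too, at 8.09 CPM against 20.3.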

How the results depend on the processing

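Counts of members called are given here by setting, beside the counts of the report. DESeq2 gave 8 for TE against epiblast, 4 for TE against ICM, 7 for pgEpiSC, 17 for 8C against 4C, 5 for TE_E6, 11 for ectoderm against epiblast, 2 each for Hypoblast_E7, TE_E7 and Ectoderm_E11, and 1 each for Epiblast_E7, Hypoblast_E8, Ectoderm_E14 and Mesdoderm_E14. Its size factors gave 0 for 4C against 2C and 1 for Epiblast_E8. Without the filter on low counts the counts were 6 for TE against ICM, 5 for mesoderm, 4 for endoderm, 7 for pgEpiSC, 4 for Epiblast_E8, 2 each for TE_E6, TE_E7 and Ectoderm_E11, and 1 each for Epiblast_E7, Ectoderm_E14 and Mesdoderm_E14. With at least 10 cells per sum they were 1 for hypoblast, 1 for mesoderm, 17 for 8C, 2 for TE_E6, 0 for Ectoderm_E11 and 1 for Ectoderm_E14. Without trended dispersion they were 1 for 4C and 1 for Epiblast_E8, and with cells of at least 6000 genes 1 for Ectoderm_E14. Without the block they were 4 for hypoblast and 0 for mesoderm. With Epiblast_E9 as the reference pgEpiSC had 2. A library block was fitted where at least 2 libraries hold both sides. In 4C against 2C it gave 1, and 0 on the same sums without a block. In morula and E5 against Oocyte to 8C, with 2 pooled arms, it gave 6, and 17 without the block. At least 10 cells per sum left too few libraries for TE against epiblast, endoderm against ectoderm and some steps.

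A refit that left a group with 1 sum takes that sum to vary as the other groups do. With each library left out in turn the counts ranged from 0 to 3 for 4C, 1 to 18 for 8C, 8 to 20 for the morula, 0 to 0 for preTE_E5, 0 to 2 for TE_E6, 0 to 0 for Epiblast_E7, 1 to 1 for Hypoblast_E7, 0 to 8 for TE_E7, 1 to 1 for Epiblast_E8, 0 to 0 for Hypoblast_E8, 0 to 4 for TE_E8, 0 to 0 for TE_E10, and 0 to 0 for Ectoderm_E11, Ectoderm_E14 and Mesdoderm_E14. They ranged from 13 to 19 for morula and E5, 3 to 8 for ectoderm against epiblast, 6 to 15 for late TE, 3 to 7 for hypoblast, 0 to 3 for TE against ICM, 0 to 5 for TE against epiblast, 0 to 2 for mesoderm, 0 to 1 for endoderm and 0 to 2 for pgEpiSC. Differences in the G2/M share ranged from 3.30 to 18.8 points for hypoblast, -4.24 to 3.52 for TE minus ICM, 22.2 to 36.1 for TE minus epiblast, -15.0 to -3.07 for mesoderm and -23.0 to -8.72 for endoderm.

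The G2/M share of TE minus ICM, 0.351 points, was -1.56 without thinning and -2.87 with scores centred within groups, and TE minus epiblast was -1.66 with centred scores. Of groups with at least 10 cells 23 had over 50% G2/M calls, 11 without thinning and 1 with centred scores. Between the pgEpiSC libraries 1 member was past 2-fold by the mean CPM over cells, and WEE1 differed by -0.71 in the deposited means. The sign turned under other settings for CCNB1 (-0.15 with DESeq2 and with its size factors) and CCND3 (-0.11 with both) in morula and E5. With a library left out, CCND1 in 8C ranged from -4.27 to 1.19 (without P1), and CDC6 in late TE from -1.98 to 0.0601 (without P12). Of the values of named genes, 498 kept direction and side of the threshold under other settings, 95 lost the call and 1 moved, and 376 and 184 did so with a library left out. The cause of these changes was not tested. Precision is limited in TE_E14, Endoderm_E11 and Oocyte, which hold 11, 13 and 4 cells, and depth left 21 cells without a phase.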
